A study of Drosophila melanogaster with 3 samples.

Results

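Divergent promoters are the stretches from which neighbouring genes are read away from each other, the minus-strand gene toward lower coordinates and the plus-strand gene toward higher ones. A Knirps-GFP summit, the position of highest ChIP-seq signal in a peak, was counted as divergent when it lay within 500 bp of both start sites of such a head-to-head pair, with the start sites of different protein-coding genes 1 to 1000 bp apart. Of the 7129 summits in the authors' optimal peak list, 516 (7.24%) met this rule. The other promoter summits, 2123 in number, lay within 500 bp of a protein-coding start site without meeting it, and 4490 lay farther away.

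The chromatin came from whole embryos of a kni-GFP fly strain, aged 0 to 14 h and of mixed sex, and was immunoprecipitated with an antibody against GFP. All 3 biological replicates belonged to this 1 group and carried the same transgene, an insertion that expresses Knirps with GFP at its C terminus. The insertion is listed as targeting kni, so the protein measured is the fusion, and cell types of the embryo cannot be told apart. Chromatin was sonicated to fragments of 200 to 800 bp, a length of the same order as the gaps described below.

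Head-to-head pairs are common in the compact fly genome and often join broadly expressed genes, such as those of ribosomes, mitochondria and the proteasome. Their shared stretch commonly holds elements such as the DRE, read by the factor DREF, and motif 1, read by M1BP, rather than a TATA box at a fixed distance. Knirps is a short-range repressor of the gap class, known for acting through enhancers of segmentation genes, which as a rule lie away from promoters of housekeeping genes.

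The annotation held 2667 head-to-head gene pairs made from 5052 genes, or 36.2% of 13945 protein-coding genes. A divergent summit was admitted by 508 of the pairs (19.0%, 95% Wilson interval 17.6 to 20.6), made up of 950 genes. Most summits had a clear address, since 488 were admitted by 1 gene pair, 23 by 2 and 5 by 3 or more. In the text below a summit is named after its closest pair, the pair with the smallest summed distance to the summit, written with the minus-strand gene before the plus-strand gene.

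The sequences that follow are the whole stretches between the closest start sites of strong divergent summits with a gap of 60 to 300 bp, shown because the summit lies inside the stretch itself. They are read on the plus strand of Release 6 of the genome, whose arms the dm6 peak coordinates share, so the minus-strand gene begins at the left end and the plus-strand gene at the right. Capitals mark matches on either strand to TATCGATA (the DRE), GGTCACAC (core of motif 1), CAGCTG (an E-box), TATAAA (the TATA box) and AGAGCA (a simplified Knirps word). Stretch lengths were 143, 229, 256, 223 and 295 bp.
RpS27–Nup37, chr3R:25247515-25247657: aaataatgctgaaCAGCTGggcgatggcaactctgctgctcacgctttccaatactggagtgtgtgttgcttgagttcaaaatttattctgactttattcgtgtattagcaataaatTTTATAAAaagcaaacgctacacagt
Trs33–Tmtc4, chr3R:15350996-15351224: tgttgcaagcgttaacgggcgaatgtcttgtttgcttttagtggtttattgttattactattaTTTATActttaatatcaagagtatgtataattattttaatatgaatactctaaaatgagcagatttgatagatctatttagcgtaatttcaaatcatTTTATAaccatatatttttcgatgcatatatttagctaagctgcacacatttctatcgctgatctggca
Art3–mRpS10, chr3R:15229409-15229664: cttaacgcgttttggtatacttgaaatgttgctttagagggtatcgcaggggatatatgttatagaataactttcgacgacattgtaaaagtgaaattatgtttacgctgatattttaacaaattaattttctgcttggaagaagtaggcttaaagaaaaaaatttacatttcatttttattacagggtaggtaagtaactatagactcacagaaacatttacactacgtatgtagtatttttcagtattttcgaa
Tcs5–CHMP2B, chr3L:5139396-5139618: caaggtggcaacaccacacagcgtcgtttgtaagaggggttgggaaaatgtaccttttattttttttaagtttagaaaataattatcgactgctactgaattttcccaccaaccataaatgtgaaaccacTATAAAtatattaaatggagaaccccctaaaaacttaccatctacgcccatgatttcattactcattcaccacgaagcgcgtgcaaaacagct
gb–CG5815, chr3R:27112271-27112565: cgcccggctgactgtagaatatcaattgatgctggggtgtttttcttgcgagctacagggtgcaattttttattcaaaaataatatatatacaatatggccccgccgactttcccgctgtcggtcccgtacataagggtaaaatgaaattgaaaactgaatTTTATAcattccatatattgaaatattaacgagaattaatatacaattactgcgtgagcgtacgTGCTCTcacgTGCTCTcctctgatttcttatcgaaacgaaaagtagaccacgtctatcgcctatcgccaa

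Within 100 bp of any protein-coding start site, TATCGATA occurred in 6.45% of windows, GGTCACAC in 5.68%, CAGCTG in 13.4%, TATAAA in 26.9% and AGAGCA in 11.1%. The stretch of Art3–mRpS10, between an arginine methyltransferase gene and a mitochondrial ribosomal protein gene, holds none of these words. That of gb–CG5815 holds AGAGCA at 2 places on the minus strand. The stretch of EMC1–Taf7 also met the choice and is not printed, because an annotated exon of Taf7 overlaps it. For comparison, these are stretches of similar length from pairs that admitted no summit even in the pooled list of 30000 peaks.
CG11723–Tbcd, chr2L:2147276-2147517: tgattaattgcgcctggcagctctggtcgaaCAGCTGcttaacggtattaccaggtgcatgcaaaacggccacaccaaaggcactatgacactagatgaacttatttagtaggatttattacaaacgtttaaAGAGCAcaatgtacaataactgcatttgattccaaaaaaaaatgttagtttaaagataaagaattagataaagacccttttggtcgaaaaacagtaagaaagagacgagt
CG10863–CG14982, chr3L:3942466-3942709: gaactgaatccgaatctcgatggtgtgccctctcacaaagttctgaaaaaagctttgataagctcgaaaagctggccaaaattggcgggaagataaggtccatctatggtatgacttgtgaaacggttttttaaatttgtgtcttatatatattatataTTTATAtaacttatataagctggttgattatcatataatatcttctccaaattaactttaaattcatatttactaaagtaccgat

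Both comparison stretches hold words of the same set, an E-box and a Knirps word between CG11723 and Tbcd and a TATA word between CG10863 and CG14982. Their G and C content was 36.8% and 31.6%. Among the 5 bound stretches it was 37.8% for RpS27–Nup37, 28.4% for Trs33–Tmtc4, 30.1% for Art3–mRpS10, 38.1% for Tcs5–CHMP2B and 40.0% for gb–CG5815.

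The strongest divergent summits lay between genes of basic cell functions. The summit of Pdrg1–Pal1 had a signal value of 1615, the authors' measure of peak strength on a scale they do not state, and rank 36 in the optimal list. It ranked 21, 46 and 50 in replicates 1, 2 and 3. Next came RpS27–Nup37, a gene of the small ribosomal subunit paired with a nuclear pore gene, with a signal value of 1567 and a summit 1 bp from the start site of RpS27. It ranked 36, 50 and 40 in the replicates, so all 3 placed it among their strongest peaks.

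CG11309–CG7632 (signal value 1495) ranked 43, 80 and 38. The summit of lin-52–CG15771 (1449) lay 452 bp from lin-52, a gene of the Myb-MuvB complex, and 164 bp from CG15771. It ranked 55 and 71 in replicates 1 and 2 and had no summit within 100 bp in the whole list of replicate 3. The summit of EMC1–Taf7 (1323), an endoplasmic reticulum membrane complex gene and a TFIID subunit gene, ranked 33 and 51 in replicates 1 and 2 and 394 in replicate 3. These last summits are the members of the strongest group on which the replicates differed most.

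A further 5 of the 12 strongest, each found in all 3 replicates, were Ripalpha–RpL7 (signal value 1259), Trs33–Tmtc4 (1251), Art3–mRpS10 (1132), CG8892–CG34126 (1054) and Kap-alpha3–Son (1047). Trs33 encodes a subunit of the TRAPP vesicle tethering complex, and Kap-alpha3 an importin. In the replicates their ranks ran from 46 for Trs33–Tmtc4 in replicate 1 to 264 for CG8892–CG34126 in replicate 3. A further 3 pairs were chosen after their values were seen, for genes whose products act at promoters or insulators. Dref–RpL13 (signal value 873), which pairs the gene of the DRE-reading factor with a ribosomal protein gene, ranked 380, 415 and 146. Cp190–CG4338 (945) ranked 130, 306 and 247, and Chro–Ssl1 (899) ranked 212, 516 and 117.

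**Figure D1:**
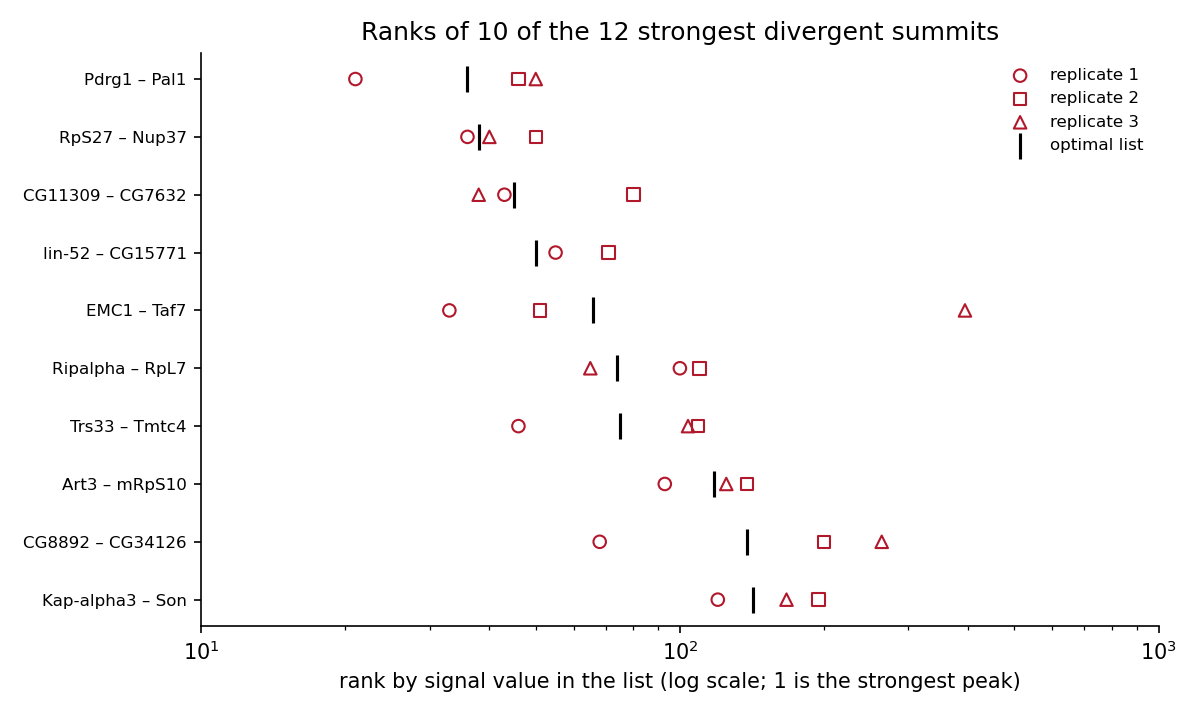
Rank by signal value, on a log axis, of 10 of the 12 strongest divergent summits in each replicate list (open symbols) and in the optimal list (black bars). The replicates lie close together for RpS27–Nup37 (36, 50 and 40), replicate 3 stands apart for EMC1–Taf7 (394), and it has no point for lin-52–CG15771.

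Divergent summits were otherwise of ordinary strength. Their signal values ran from 189 to 1615 with a median of 290, against 188 to 4913 with a median of 296 for the other promoter summits. Among the 100 strongest optimal peaks 8 were divergent, and 28 were other promoter summits. In the replicates the median signal percentile within the list, 100 being the strongest peak, was 49.6, 46.7 and 51.8 for divergent summits, against 52.4, 51.3 and 52.4 for other promoter summits. Divergent summits were lower in all 3 replicates, by 2.68 ± 2.01 percentiles (SD, n = 3). The exact sign-flip permutation test over the replicates gave a two-sided p of 0.25, the smallest that 3 replicates allow, so no such comparison here can reach 0.05. This small difference changed sign when the 250 bp limit was used (1.13) or replicate 1 was left out (2.52).

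Over the whole list, divergent summits were also about as reproducible as promoter summits in general. Each replicate was reduced to its 7129 strongest peaks, and a summit no farther than 100 bp away was present in all 3 for 249 of 516 divergent summits (48.3%, 95% Wilson interval 44.0 to 52.6). For the other promoter summits it was 1108 of 2123 (52.2%, 50.1 to 54.3), and for the whole optimal list 52.1%. The difference was -3.93 percentage points, with a 95% interval of -8.71 to 0.870, which covers counting error over peaks only, and at a match distance of 50 bp it was 0.863. The share followed strength in both classes. Among the strongest 1782 optimal peaks 88.8% of divergent and 89.7% of other promoter summits were found in all 3 replicates, and among the weakest 1783 it was 5 of 125 and 14 of 504. No replicate had 12 of the divergent summits in its reduced list, and 407 had a summit within 100 bp in all 3 whole lists of 30000.

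Windows on pairs held summits more often than windows on start sites without a head-to-head partner. Within 250 bp of the midpoint of a pair, 429 of 2518 windows held an optimal summit (17.0%, 95% Wilson interval 15.6 to 18.6). Around lone start sites it was 748 of 8758 windows (8.54%, 7.97 to 9.14), and 10.4% over both kinds. In replicates 1, 2 and 3 the shares were 20.0%, 15.6% and 17.8% for pairs, against 7.83%, 8.24% and 9.29% for lone start sites, without overlap between the kinds. The difference of 9.35 ± 2.52 percentage points (SD, n = 3) had a two-sided p of 0.25 in the exact sign-flip permutation test. The size depends on which peaks are kept. The optimal list gave 8.50 points, its strongest 3564 peaks 4.28 and the whole pooled list 16.5. Optimal peaks found in both other replicates gave 4.20 points without replicate 1, 5.37 without replicate 2 and 5.78 without replicate 3. With windows on each paired gene's own start site, an alternative chosen after seeing the data, 840 of 4931 held a summit (17.0%). A pair window reaches the start sites of both genes when the gap is at most 500 bp, and a lone window is centred on 1 start site. The shares are therefore per window and not per start site. A window on a paired gene's own start site can reach the partner's start site as well. Pair windows and lone windows also differ in which genes they hold. The part of either in the difference was not tested.

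Per gene the order was the same. An optimal summit lay within 500 bp of a start site for 1297 of 5052 genes in head-to-head pairs (25.7%) and for 1271 of 8893 genes without a partner (14.3%), against 18.4% of all protein-coding genes. The replicate means were 26.5 ± 1.90% and 14.0 ± 0.717% (SD, n = 3). A paired gene can owe its summit to its partner's start site. Divergent summits were still the smaller part of promoter summits, 19.6% in the optimal list and 20.4 ± 2.34% in the replicates (SD, n = 3).

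Most summits sat inside the shared stretch. Of the 516 divergent summits, 349 (67.6%, 95% Wilson interval 63.5 to 71.5) lay between the paired start sites, 84 lay in the minus-strand gene and 83 in the plus-strand gene. The replicates gave 70.9%, 67.1% and 64.7% between the start sites. The rule itself favours this place in pairs with a wide gap, and on average 41.6% of the positions it admits for the same pairs lie between the start sites. Summits in the stretch had a median signal value of 302 and 55.0% were found in all 3 replicates. Those past a start site had median values of 244 on the minus and 250 on the plus side, with 36.9% and 31.3% found in all 3.

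How far the stretch held the summit depended on its length. With a gap of 1 to 100 bp, 15 of 80 summits (18.8%) lay between the start sites, where 6.22% of admitted positions do. With a gap of 101 to 200 bp it was 32 of 65 (49.2%, against 16.8% of positions), and with 201 to 300 bp 128 of 166 (77.1%, against 34.9%). With 301 to 500 bp it was 141 of 172 (82.0%, against 62.8%). Divergent summits lay a median of 78.0 bp from the nearest start site, and other promoter summits 152 bp. Over the replicates the medians averaged 75.2 ± 1.76 bp for divergent summits and 156 ± 6.56 bp for other promoter summits (SD, n = 3). Having start sites on both sides makes this distance smaller by construction.

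**Figure D2:**
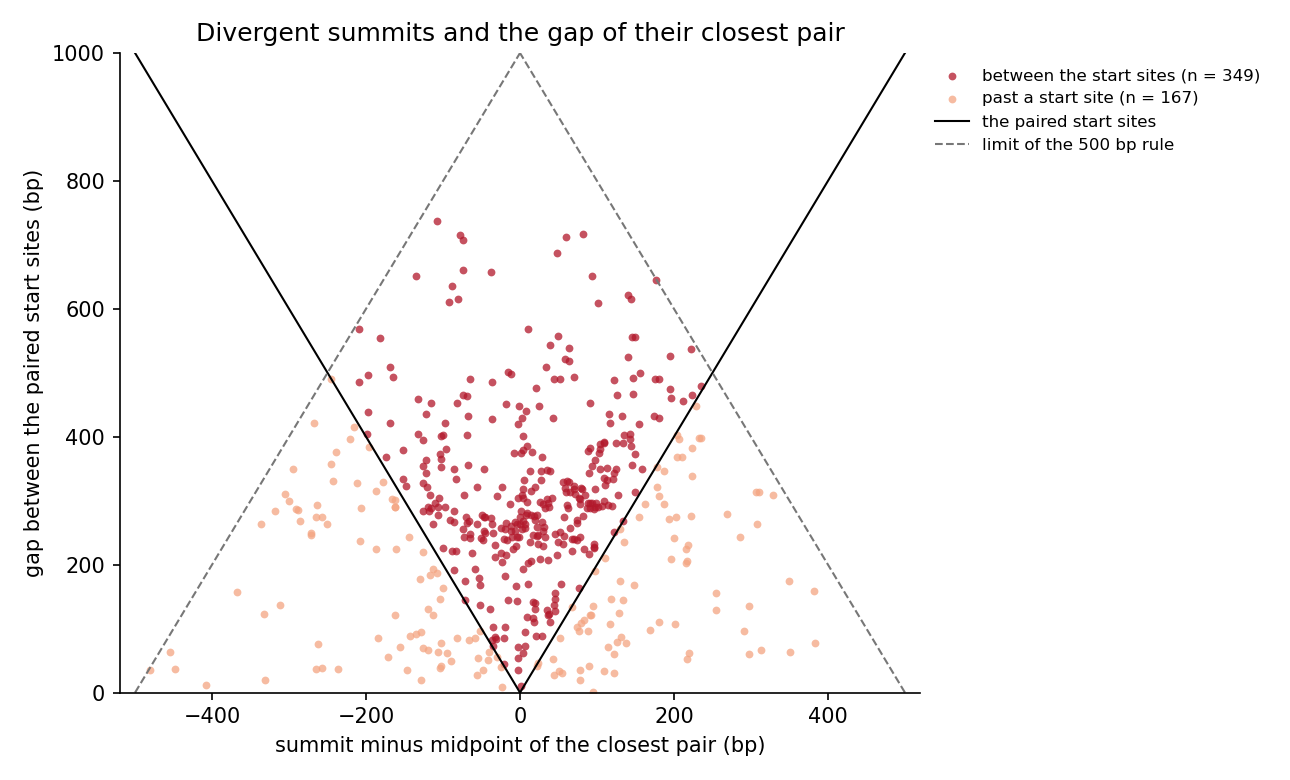
Each point is a divergent summit of the optimal list, placed by its distance from the midpoint of its closest pair (bp, positive toward the plus-strand gene) and by the gap of that pair (bp). Solid lines mark the start sites and dashed lines the limit of the rule. Between the solid lines lie 349 summits, and 167 lie past a start site.

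Summits leaned slightly to the plus-strand side. In the optimal list 289 lay nearer to the plus-strand start site, 226 nearer to the minus-strand one and 1 at equal distance. The share nearer to the plus strand was 53.5%, 55.1% and 52.3% in the replicates, and the median summit lay 9.17 ± 1.89 bp from the midpoint toward higher coordinates (SD, n = 3). Other promoter summits lay at a median of -53.0 bp from plus-strand and 66.0 bp from minus-strand start sites in chromosome coordinates, which is upstream of both kinds. The distance was larger on the minus strand in replicates 1 and 3 and smaller in replicate 2, where the medians were -46.5 bp from plus-strand and 42.5 bp from minus-strand start sites. A shift of the lists toward higher coordinates and a lean toward plus-strand genes cannot be told apart here.

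The interval of a peak often held both start sites of the closest pair, 278 of 516 times (53.9%). Of the 516 intervals, 412 (79.8%) had the commonest width of the optimal list, 520 bp. At that width the count depends on the gap and on where the summit lies. Where a pair had several summits they lay a median of 203 bp apart and never under 199 bp over 58 neighbouring summits. Of the 458 closest pairs, 401 had 1 divergent summit, 56 had 2 and 1 had 3. The last was RpL32–CG7943, with signal values of 651, 436 and 234 at a gap of 309 bp. Among the strongest pairs with 2 were RpS27–Nup37 (1567 and 407), EMC1–Taf7 (1323 and 250) and Trs33–Tmtc4 (1251 and 207).

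Pairs of every gap up to 500 bp held summits, and the widest pairs held few at their midpoint. Counted per summit, the gap of the closest pair had a median of 275 bp (quartiles 168 and 356). Taken per gene pair at its narrowest gap, pairs that admitted a divergent summit had a median of 256 bp (121 and 328). Pairs that admitted none had 327 bp (179 and 548), and all gene pairs 301 bp (163 and 502). The rule admits fewer positions as the gap widens, which favours narrow pairs by construction. Within 250 bp of the midpoint, a summit lay at 133 of 745 pairs with a gap of 1 to 200 bp (17.9%), 258 of 1130 with 201 to 500 bp (22.8%) and 38 of 643 with 501 to 1000 bp (5.91%). Replicate values for the narrow pairs were 20.9%, 17.9% and 18.1%, and for the wide ones 7.31%, 4.51% and 7.47%. This difference was 12.5 ± 1.64 percentage points (SD, n = 3; two-sided p = 0.25, exact sign-flip permutation test). It rests on a window that does not reach the start sites of wide pairs. With windows reaching 250 bp past both start sites, chosen after seeing the data, the shares were 19.3%, 25.9% and 21.5%, and the narrow pairs were 2.13 percentage points below the wide ones. These windows span the gap, so more length was searched at wide pairs than at narrow ones. Optimal peaks found in both other replicates gave midpoint differences of 6.58, 5.51 and 7.39 points without replicates 1, 2 and 3, against 11.9 in the optimal list.

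Along the gap the share was not even. It was highest at 201 to 250 bp (24.7%, 56 of 227) and 251 to 300 bp (27.2%, 78 of 287), and lower at 151 to 200 bp (12.1%, 17 of 141, 95% Wilson interval 7.67 to 18.5). Replicates 1, 2 and 3 gave 14.2%, 9.22% and 14.9% at 151 to 200 bp, against 33.1%, 26.1% and 27.2% at 251 to 300 bp. Histone pairs, many with gaps in the lower of these ranges, held no optimal summit, and without them the share at 151 to 200 bp was 13.8%.

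**Figure D3:**
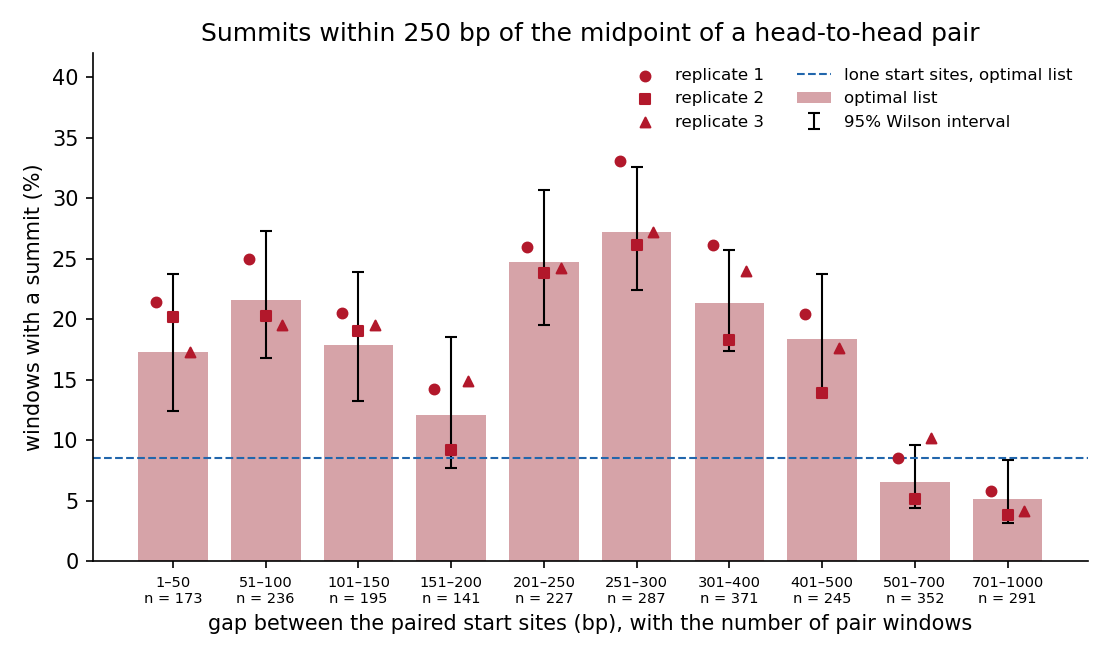
Share of head-to-head pair windows with a summit within 250 bp of the midpoint (%), by gap (bp), with n windows under each bar. Bars give the optimal list with 95% Wilson intervals, symbols give the 3 replicates, and the dashed line marks lone start sites (8.54%). The bars reach 27.2% at a gap of 251 to 300 bp and are at 5.15% past 700 bp, where the window does not reach the start sites.

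Pairs with a gene of the cytosolic ribosome held summits most often among the 18 gene lists. A divergent summit was present at 34 of 55 pairs with a cytosolic ribosomal protein gene (61.8%, 95% Wilson interval 48.6 to 73.5), against 474 of 2612 pairs without such a gene (18.1%). The replicates held summits at 34, 32 and 33 of the 55 ribosomal protein pairs, against 21.1%, 16.7% and 19.1% of the other pairs. The difference was 41.0 ± 0.439 percentage points (SD, n = 3), higher in 3 of 3 replicates. Among pairs with a gap of at most 500 bp, 31 of 35 held a summit, against 452 of 1960 pairs without such a gene (23.1%). Cytosolic ribosomal protein genes were already known to hold many summits in these data, so the size of this difference was not independent of the choice of the list.

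The summit lay close to the start site of the ribosomal protein gene. In 32 of the 34 pairs it was nearer to that start site than to the partner's. The median distance was 40.5 bp to the start site of the ribosomal protein gene (quartiles 17.2 and 79.8) and 258 bp to that of the partner (175 and 309). The exceptions were Dref–RpL13, with the summit 11 bp from Dref and 73 bp from RpL13, and the pair of RpL34a and Trmt61, at 145 bp from RpL34a and 84 bp from Trmt61. Partners were of many kinds, among them Nup37, the translation factor gene eIF1, the elongation regulator gene Nelf-E and the kinase gene Rok. In the pair of RpS19a and Rok, 480 bp apart, the summit lay 5 bp from RpS19a and 475 bp from Rok.

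Summits of these pairs were also strong. The median signal percentile of the strongest summit was 83.7, and 29 of the 34 were in the stronger 3564 peaks of the optimal list. Summits were found in all 3 replicates for 31 of the 34 pairs, and RpS5a–Chchd2, the pair of RpL29 and Sgf29 and the pair of RpL7A and dx were found in 1. Of the 21 pairs without a divergent summit 17 had a gap above 500 bp. The rule admits little of the ground near a start site there, and 11 of the 20 ribosomal protein genes concerned had an optimal summit within 500 bp of a start site of their own. The 4 narrower pairs without a summit were those of RpL31, RpS15Ab, RpS19b and RpS28a. The named pairs without a summit were Adk2–RpS12 and CG11597–RpL10Ab, with gaps of 664 and 576 bp.

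Ribosomal protein genes without a head-to-head partner had summits too, 17 of 33 (51.5%), against 44 of 53 paired ones (83.0%). In the replicates the paired genes gave 81.1%, 81.1% and 84.9%, and the partnerless ones 51.5%, 51.5% and 54.5%. Of the 33 distinct summits at ribosomal protein pairs, 10 had TATCGATA, 4 had GGTCACAC and 5 had CTCTTTC, a pyrimidine-rich start word of ribosomal protein genes, within 100 bp.

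Other housekeeping lists lay nearer to the 19.0% of all pairs. Aminoacyl-tRNA synthetase genes, which charge tRNAs, had a summit at 9 of 26 pairs (8.33 ± 0.577 in the replicates, SD, n = 3). Their strongest were TyrRS–CG33158 (signal value 500), AsnRS–DCTN6-p27 (398) and Fitm–AlaRS-m (383), and ArgRS–CG8578 and CG17816–ArgRS-m had none. Chaperone genes had summits at 5 of 18 pairs, with Hsp67Bc–Hsp22 and Hsp67Bc–CG4456 sharing 1 summit of signal value 522. Hsc70-5–CG8531 followed with 320. CCT1–tHMG1 and CCT4–CG6153, which hold chaperonin subunit genes, had none.

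Genes of the mitochondrial ribosome had a summit at 16 of 60 pairs, and 19, 12 and 17 in replicates 1, 2 and 3. In contrast to the cytosolic list, the summit was nearer to the listed gene in 4 of these 16. The strongest were Art3–mRpS10 (1132), mRpS23–CenG1A (711) and AGO1–mRpL53 (694), and the last ranked 337 and 420 in replicates 1 and 2 but 4010 in replicate 3. CG11674–mRpL38 and CG15535–mRpS18C had none. Genes of the respiratory chain and ATP synthase had a summit at 9 of 48 pairs, with Cchl–ND-42 (563) the strongest, then ND-51–CG13994 (402) and glo–COX5A (258). ATPsynCF6–Sec13 and ATPsynF–CG3548 had none.

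Vesicle traffic genes had a summit at 15 of 65 pairs, led by Trs33–Tmtc4, Fur1–Vps33B (638) and Snapin–Tnpo-SR (472), and Arf1–CG11109 had none. RNA polymerase, Mediator and general transcription factor genes had one at 11 of 60, led by EMC1–Taf7, elm–MED27 (513) and CG10584–Polr3E (385). Bug22–TfIIB and CG1024–TfIIFalpha had none. Replication and repair genes had a summit at 5 of 33 pairs, among them PCNA2–CG10366 (264), mrva–mus312 (235) and Polr3D–mus304 (234), and none at Arpc1–Orc5 and Art1–Mcm5. For cell cycle genes it was 4 of 33, with CG3226–Cdc7 (525), CG3281–aurA (342), which holds the gene of the Aurora A kinase, and dlt–Cdc37 (342). APC10–CG4866 and CG18858–Cdc23 had none.

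Translation factor genes had a summit at 4 of 29 pairs, including eIF4EHP–CG18428 (993), RpL28–eIF1 (716) and eIF3h–senju (463). The summit of RpL28–eIF1 lay 95 bp from RpL28 and 286 bp from eIF1. CCHa1-R–eIF3c and CG34015–eIF4H1 had none. Chromatin regulator genes had a summit at 4 of 31 pairs in the optimal list but at 6, 8 and 9 in the replicates. Their strongest was brm–Arl1 (672), with the ATPase gene of the Brahma remodelling complex, followed by CG9114–HDAC6 (580) and CG31344–Caf1-55 (289). CG1998–Set2 and CG33062–Chd3 had none.

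Low counts were found for some housekeeping lists as well, with intervals that reach the 19.0% of all pairs. Proteasome genes had a summit at 2 of 27 pairs (7.41%, 95% Wilson interval 2.06 to 23.4), dgo–Prosbeta5 and Rpn7–AP-2mu, both with a signal value of 203, and the replicates gave 2, 1 and 5. CG11122–Rpt3 and CG33125–Prosbeta4R1 had none. Splicing genes had the same count and interval, 2 of 27, Oda–SmD3 (384) and snRNP-U1-C–gukh (195), and CG12608–Prp5 and CSN1b–Prp6 had none. Chemosensory receptor genes, which act in adult and larval sense organs, had a summit at 1 of 24 pairs, Gr63a–Lamtor4 (211), where it lay 58 bp from Lamtor4 and 239 bp from Gr63a. CG11594–Gr64a and CG14102–Ir76a had none, and no cuticle protein pair of 9 had any (0, which allows up to 33.3% at a limit of 3 pairs), CG3119–Cpr23B and Ccp84Ae–Ccp84Ad included.

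Histone genes had no optimal summit at 45 pairs, CG14036–His3.3A and His2B:CG17949–His2A:CG31618 included. A limit of 3 pairs allows a share of up to 6.67%, and the 95% Wilson interval reaches 7.87%. Replicates 1, 2 and 3 had a summit at 0, 1 and 1 histone pairs, and the pooled list at 3. Most of them are near-identical repeat copies, for which the authors' placement of reads is uncertain. The segmentation, Hox and homeobox genes, those Knirps is best known to act on, were nearly absent from divergent promoters. Only exd, a Hox cofactor gene, of 47 such genes lay in head-to-head pairs (CG46312–exd and eIF5–exd), and it had no divergent summit. Of the other 46 genes 31 (67.4%) had an optimal summit within 500 bp of a start site, against 14.3% of all genes without a partner. The Enhancer of split complex, a set of Notch targets, likewise had 1 of 11 genes in a pair, CG43116–E(spl)mdelta-HLH, with no optimal divergent summit, and 9 of the other 10 had a promoter summit.

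**Figure D4:**
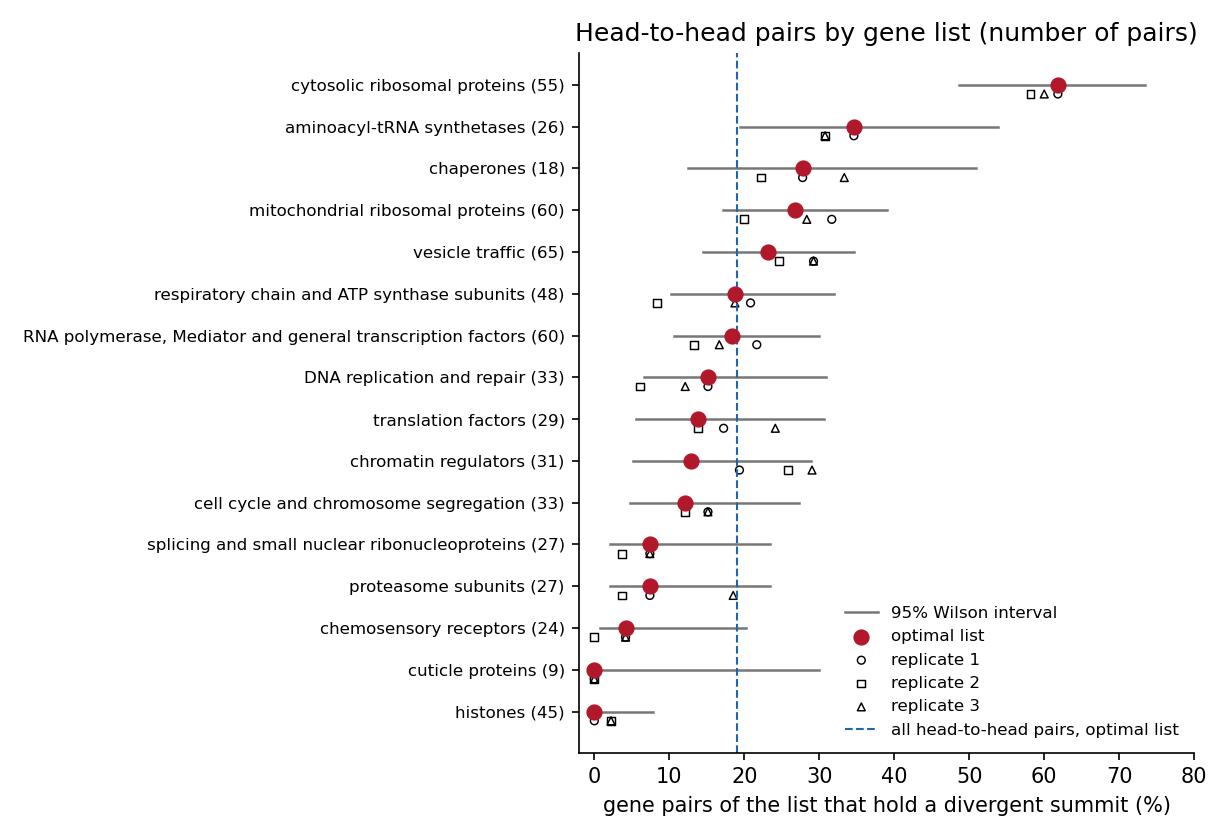
Share of head-to-head pairs with a divergent summit (%), for gene lists with at least 9 pairs, the number of pairs in brackets. Filled points give the optimal list with 95% Wilson intervals, open symbols the 3 replicates, and the dashed line all pairs (19.0%). Only the interval of cytosolic ribosomal protein pairs, 48.6 to 73.5%, and that of aminoacyl-tRNA synthetase pairs, 19.4 to 53.8%, lie above the line, and that of histone pairs lies below it.

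Several promoter words, the DRE and motif 1 among them, were more frequent at divergent summits than at other promoter summits. For most of them the share at divergent summits was nearer to that over all protein-coding start sites. TATCGATA, the DRE, lay within 100 bp of 38 of 516 divergent summits (7.36%) and 46 of 2123 other promoter summits (2.17%), against 6.45% of all start sites. In the replicates the difference was 6.99 ± 1.17 percentage points (SD, n = 3). GGTCACAC, the core of motif 1, gave 6.98% at divergent and 1.93% at other promoter summits, against 5.68% of all start sites, with a difference of 5.46 ± 1.41 points between the summits in the replicates. With the 250 bp limit the differences in the optimal list were 3.39 points for TATCGATA and 3.28 for GGTCACAC. TATAAA gave 33.1% at divergent and 17.3% at other promoter summits (26.9% of all start sites). CGATA, a word of the insulator factor BEAF-32 that the DRE contains, gave 41.9% and 27.3% (37.1% of all start sites), and CAGCTG 19.8% and 12.2% (13.4%). All of these were higher at divergent summits in 3 of 3 replicates, and the exact sign-flip permutation test gave a two-sided p of 0.25 for each. Divergent summits also lay nearer to start sites, which the rule favours, with 65.1% within 100 bp of a start site against 35.9% of other promoter summits. The part of this distance, or of the lower G and C content given below, in the word differences was not tested.

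Other words were rarer at divergent summits. GAGAGAG, a repeat read by the GAGA factor, lay within 100 bp of 2.13% of divergent and 15.9% of other promoter summits, and ACACACA gave 8.33% and 19.1%. Over all start sites these words were at 4.69% and 7.17%, nearer to the divergent summits. CTCTTTC gave 2.52% and 9.09%, and the initiator word TCAGT 26.0% and 35.2%. The Zelda core CAGGTA gave 4.84% and 7.07%. Over all start sites CAGGTA was at 4.26%, the initiator word at 43.4% and the pyrimidine-rich word at 3.55%. AGAGCA, the simplified Knirps word, gave 11.4% and 15.8%, lower by 5.84 ± 0.967 points in the replicates (SD, n = 3; two-sided p = 0.25, exact sign-flip permutation test), and at 11.1% of all start sites it was near the divergent share. In the optimal list its difference was -4.35 points within 100 bp and -1.94 within 50 bp of the summit. The longer word CTAGAGCA was at 0.388% of divergent and 0.377% of other promoter summits. Apart from CTAGAGCA, all of these words were lower at divergent summits in 3 of 3 replicates. CTAGAGCA lay at only 2 of 516 divergent summits, too few to tell a direction. Its replicate shares were 0.504%, 0.211% and 0.180% at divergent summits, against 0.505%, 0.290% and 0.395% at other promoter summits. The mean difference was -0.0983 ± 0.109 points (SD, n = 3). G and C made up 38.4% of the bases around divergent summits and 45.3% around other promoter summits, with a difference of -7.08 ± 0.463 points in the replicates.

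**Figure D5:**
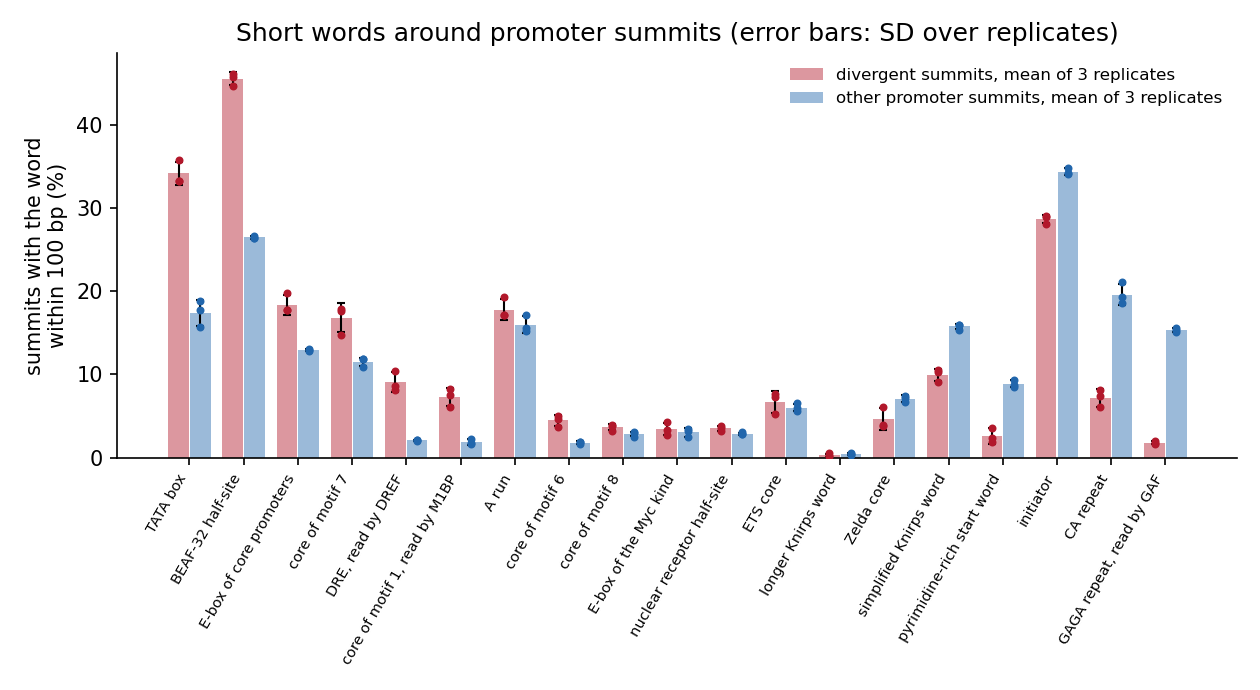
Share of divergent (red, left of each pair of bars) and other promoter summits (blue) with a short word within 100 bp (%), as the mean of 3 replicates with SD bars and a point for each replicate, ordered by the difference in the optimal list. The TATA box, the BEAF-32 word, the DRE and motif 1 are higher at divergent summits, and the initiator, the CA repeat and the GAGA repeat are lower.

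The same words hardly told bound pairs from unbound ones. Within 100 bp of the midpoint, TATCGATA was at 9.32% of pairs with an optimal summit within 250 bp and 8.33% of pairs without. GGTCACAC gave 4.20% and 5.74%, TATAAA 38.5% and 41.3%, and AGAGCA 7.93% and 8.28%. CAGCTG, with the largest mean difference in the replicates, was at 15.9% of pairs with a summit and 11.9% of those without. In replicates 1, 2 and 3 it gave 16.1%, 17.0% and 17.4% of pairs with a summit, against 11.7%, 11.7% and 11.5% of pairs without, a difference of 5.22 ± 0.762 points (SD, n = 3; two-sided p = 0.25, exact sign-flip permutation test). CGATA came close, with 44.5% and 41.2% in the optimal list and a replicate difference of 4.99 ± 2.48 points (SD, n = 3). The initiator word TCAGT (27.3% and 31.2%) and the A run AAAAAAA (19.6% and 24.1%) were rarer at pairs with a summit. G and C content was 34.6% in pairs with a summit and 33.8% in those without. Over all protein-coding start sites it was 42.3%.

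Words also differed in how near they lay to the summit. Of the divergent summits, 134 had TATCGATA within 500 bp, at a median of 145 bp, and 380 had TATAAA, at a median of 117 bp. For AGAGCA it was 234 summits and a median of 233 bp. A commoner word has a copy near a summit more readily, so these medians mix frequency with distance. Copies of TATAAA per 100 bp went from 0.244 within 50 bp to 0.0998 in the outermost 100 bp of the 500 bp searched. For TATCGATA they went from 0.0465 to 0.0136, and for AGAGCA from 0.0717 to 0.0543. Divergent summits with TATAAA within 100 bp had a median signal value of 322, against 277 for those without. Those with TATCGATA had 296 against 289, those with GGTCACAC 268 against 292, and those with AGAGCA 295 against 289. Summits with CAGCTG had 268 against 294. Their signal percentile was lower than without the word in replicates 1 and 3 and higher in replicate 2. No word of TATCGATA, GGTCACAC, CAGCTG and TATAAA lay within 100 bp of 221 divergent summits, and TATAAA alone was near 128.

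On the chromosome arms, pairs of 3R held summits most often, 168 of 683 (24.6%, 95% Wilson interval 21.5 to 28.0), and 26.4%, 23.3% and 24.2% in the replicates. On 3L it was 103 of 518 (19.9%), on 2R 95 of 543 (17.5%), on 2L 82 of 509 (16.1%) and on the X 60 of 403 (14.9%). None of 11 pairs on chromosome 4 held an optimal summit, which allows up to 27.3% at a limit of 3 pairs, and the replicates gave 9.09%, 0% and 9.09%. The replicate ranges of the other large arms overlapped that of 3R only on 3L, with 23.7%, 17.8% and 25.1%.

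A gene annotated as ncRNA lay within 500 bp of 31 divergent summits (6.01%), 169 other promoter summits (7.96%) and 10.1% of all optimal summits. No divergent summit was within 500 bp of a tRNA or snRNA gene, and 1 (0.194%) was near a snoRNA gene. Over all optimal summits the shares were also small, 0.337% for tRNA, 0.140% for snRNA and 0.309% for snoRNA genes, so no difference was detectable at these counts.

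At the edges of the rule, the summits just inside the 500 bp limit were at Asap–Nup50 (498 bp from the farther start site, signal value 232) and dpr14–spidey (499 bp, 517). Just outside were those at Lasp–Dab (501 bp, 208) and ck–CG33679 (504 bp, 368). The widest gaps of divergent summits were 717 bp for CG2246–CG31021 (rank 2628) and 737 bp for RpS5a–Chchd2 (rank 4478), well under the limit of 1000 bp, near which the rule admits hardly any position. No summit lay just outside that limit, within 600 bp of both start sites.

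The pooled list of 30000 peaks held a further 874 divergent summits below the optimal list, 17.0% of the promoter summits there, against 19.6% in the optimal list. With the optimal summits included, 1084 of the 2667 gene pairs (40.6%) admitted a summit of the pooled list. The replicate lists each placed a summit among their strongest 7129 at 304 of the gene pairs in common, and 300 of these also held an optimal divergent summit.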

How the data were processed

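Per the labels, whole kni-GFP embryos gave 3 ChIP-seq replicates with an antibody against GFP. The authors deposited peak lists on dm6 for each replicate and for the pooled reads (30000 peaks each) and an optimal list of 7129 peaks, which a check found to be the strongest part of the pooled list. The deposited signal value is the authors' peak strength on an unstated scale and served to order peaks and to describe them inside one list. Which caller, aligner and threshold the authors used is not given in the sources used here, and the read depth is unknown.

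Start sites came from Ensembl release 115 (13945 protein-coding genes, 19252 positions) and sequence from Release 6 of the genome. Each replicate entered with its strongest 7129 peaks. Gene lists were defined by symbol patterns, and words were searched on either strand, where overlapping words were counted separately. Wilson intervals cover counting error over peaks, genes or windows. Differences over replicates were tested with exact sign-flip permutation tests (Python 3.11.15, numpy 2.4.6). The code was tested on simulated data. Named pairs were the 12 strongest, the 5 with the most summits, up to 3 with and 2 without a summit per list, and those at the limits of the rule. Some pairs that this choice names are not reported here. The members, lists and words were chosen with earlier results of these data known. P-values and SDs measure the spread between 3 replicates of 1 fly line.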

Additional observations from a re-analysis of the deposited data

How the results depend on the processing

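Of the 73 alternative values of differences, 69 kept their direction and 4 reversed. The 2 plain shares (of promoter summits that were divergent and of divergent summits between start sites) have no direction. The signal percentile difference of -1.75 was 1.13 with the 250 bp limit and 2.52 without replicate 1, and with 1 replicate left out it ran from -1.25 to 2.52. The difference in summits found in all 3 replicates, -3.93 percentage points, was 0.863 at a match distance of 50 bp. Narrow minus wide pairs, 11.9 points at the midpoint, was -2.13 with windows reaching 250 bp past both start sites. The midpoint window misses the start sites of wide pairs, and the other window is longer for wide pairs than for narrow ones.

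The rest kept their direction with other sizes, and except where the setting itself reduces the peaks or the window, the cause was not tested. The 250 bp limit gave a divergent share of promoter summits of 14.6%, a share between start sites of 73.6%, and differences of 3.39 points for TATCGATA, 3.28 for GGTCACAC, -6.38 for AGAGCA and -8.64 for G and C. The strongest 3564 peaks gave a pair minus lone difference of 4.28 points, 74.3% between start sites, 3.58 points for GGTCACAC, -8.04 for G and C and 4.99 for narrow minus wide pairs. Pair minus lone windows gave 12 points with gaps up to 500 bp, 5.76 with windows of 100 bp and 16.5 with the whole pooled list, against 8.50 in the main setting. Narrow minus wide pairs gave 8.16 with windows of 100 bp, 20.0 with the whole pooled list and 5.56 with start sites of every biotype, which also gave -6.30 for G and C. Words within 50 bp gave 3.47 points for TATCGATA, 3.32 for GGTCACAC and -1.94 for AGAGCA.

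Without each replicate in turn, which keeps the peaks found in both others, the ranges were 4.20 to 5.78 points for pair minus lone windows, 73.0 to 75.8% between start sites, 5.88 to 7.04 points for TATCGATA and 5.38 to 6.48 for GGTCACAC. They were -7.63 to -7.43 for G and C and 5.51 to 7.39 for narrow minus wide pairs. Differences were taken within each replicate, and with 1 group there was nothing to pair across groups. With 3 replicates the sign-flip test cannot go below 0.25, and without reads neither depth nor the level of binding at a pair can be given.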
